A study of Mus musculus with 8 samples.

Results

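The Nat8 genes encode a family of small N-acetyltransferases, and their transcripts were examined in kidneys of control and cisplatin-treated mice. The members were taken by name, as every gene of the deposited count table whose symbol begins with Nat8 and which carried a single value for each of the 8 libraries. Of 10 Nat8 genes in the table, 5 met this rule: Nat8, Nat8f1, Nat8f4, Nat8f5 and Nat8f7. They stand among 35880 genes with a value per library, in a table of 53715. The other 5 (Nat8f2, Nat8f3, Nat8f6, Nat8l and the pseudogene Nat8b-ps) carried 10 values for 8 named libraries and were not used here. The family was chosen by a measured value, the fitted cisplatin fold change of Nat8f7, which was among the lowest in this same comparison, so all member values are given as a description, with no test.

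The kidneys came from C57/BL6J mice described as male and of WT genotype. Per the study's methods, the control group received saline intraperitoneally and the cisplatin group cisplatin at 23 mg/kg by the same route, with kidneys taken 72 h after injection. Cisplatin is a platinum chemotherapy drug with toxicity towards the renal proximal tubule. Each group had 4 mice, 1 library each, numbered 1, 2, 3 and 5 for control and 1, 3, 4 and 6 for cisplatin, and the comparison asks how the drug changed the kidney transcriptome. Whole kidney was sequenced in bulk, so fewer cells of a type and less RNA per cell cannot be told apart. Ages of the mice were not given in the sources used here.

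NAT8 enzymes sit in the membrane of the endoplasmic reticulum. The kidney enzyme completes the synthesis of mercapturic acids, in which a foreign compound is joined to glutathione by glutathione S-transferases, the conjugate is trimmed to a cysteine conjugate by peptidases of the brush border, and Nat8 adds an acetyl group so that the product can leave in the urine. In kidney this activity belongs to the proximal tubule. The mouse Nat8f genes, earlier called camello-like genes, are close relatives whose individual substrates are less well defined.

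All Nat8 genes of the table but Nat8l, which lies on chromosome 5, form a cluster of 9 genes on the minus strand of chromosome 6 (GRCm38), chr6:85706727-85933379, a span of 226653 bases. The measured members are, in genome order, Nat8f7 (ENSMUSG00000089694, chr6:85706727-85713205), Nat8f5 (ENSMUSG00000079494, chr6:85817218-85820972), Nat8 (ENSMUSG00000030004, chr6:85830388-85832082), Nat8f4 (ENSMUSG00000068299, chr6:85899051-85904884) and Nat8f1 (ENSMUSG00000057103, chr6:85910154-85915687). Reads from stretches that near-identical copies share letter for letter cannot by themselves be assigned to 1 gene. The 5 coding stretches shown here are 150 bases long, 1 sequenced read, from GENCODE M21, and were picked as the stretch of Nat8f7 that Nat8f3 and Nat8f6 carry letter for letter and that is most alike in the other members. Each lies in the last coding exon of its gene and on the minus strand: chr6:85707310-85707459 for Nat8f7, chr6:85830603-85830752 for Nat8, chr6:85910400-85910549 for Nat8f1, chr6:85817433-85817582 for Nat8f5 and chr6:85900996-85901145 for Nat8f4. Capitals mark bases that differ from Nat8f7.
Nat8f7: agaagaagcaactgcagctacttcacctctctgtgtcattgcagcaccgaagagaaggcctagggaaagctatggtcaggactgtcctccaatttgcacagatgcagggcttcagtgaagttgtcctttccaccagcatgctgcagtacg
Nat8: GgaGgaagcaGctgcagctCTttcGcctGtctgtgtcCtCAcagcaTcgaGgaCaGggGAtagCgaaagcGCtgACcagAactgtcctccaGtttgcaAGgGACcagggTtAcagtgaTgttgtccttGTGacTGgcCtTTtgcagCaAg
Nat8f1: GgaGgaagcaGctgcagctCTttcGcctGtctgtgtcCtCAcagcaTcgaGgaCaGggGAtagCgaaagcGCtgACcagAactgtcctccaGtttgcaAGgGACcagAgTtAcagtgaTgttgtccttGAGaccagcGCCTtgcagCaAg
Nat8f5: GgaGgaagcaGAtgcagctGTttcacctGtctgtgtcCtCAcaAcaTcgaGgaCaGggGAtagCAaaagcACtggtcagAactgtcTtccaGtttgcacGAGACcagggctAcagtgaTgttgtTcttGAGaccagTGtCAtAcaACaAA
Nat8f4: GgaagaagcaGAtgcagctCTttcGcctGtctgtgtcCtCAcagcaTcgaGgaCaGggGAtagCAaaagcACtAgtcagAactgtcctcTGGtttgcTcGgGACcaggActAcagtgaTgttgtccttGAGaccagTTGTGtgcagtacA

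Taken without its mate, a read from this stretch of Nat8f7 could not be told from Nat8f3 or Nat8f6. Nat8 and Nat8f1 differed from the stretch at 41 of the 150 bases, Nat8f4 at 42 and Nat8f5 at 44. What the mate of a read pair adds was not examined. Over the whole coding sequence Nat8f7 was 99.6% identical to Nat8f3 and 99.6% identical to Nat8f6, but 67.7% to 73.3% identical to the other measured members. Nat8 and Nat8f1 were the most alike of the measured members, at 84.0%. Of the 1673 different 150-base windows in Nat8f7 transcripts, 895 (53.5%) occurred unchanged in Nat8f3 or Nat8f6. The corresponding share was 0% for Nat8 and for Nat8f5, 1.83% for Nat8f4 (with Nat8f2) and 3.33% for Nat8f1 (with Nat8b-ps). The counts of Nat8f7 are therefore uncertain in how reads were divided among 3 near-identical genes, and those of Nat8, Nat8f4 and Nat8f5 are little touched by this. Overlap of gene models adds a limit for others. Of the 1345 exon bases of Nat8f1, 478 (35.5%) overlap Tprkb on the opposite strand, and 135 of the 986 exon bases of Nat8f5 (13.7%) overlap Nat8f6 on the same strand. Whether counting used strand is not given in the sources used here, so Nat8f1 reads may include some of Tprkb.

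RefSeq promoter windows (GRCm38.p6, the 250 bases before a start, minus strand) were found for all 5 measured members. The windows of Nat8 (chr6:85832280-85832529), Nat8f5 (chr6:85820973-85821222) and Nat8f4 (chr6:85904939-85905188) are shown because Nat8 and Nat8f5 were lower in treated kidneys while Nat8f4 was not, and because none of the 3 contains an annotated exon. RefSeq gives Nat8 and Nat8f4 a second start each, and the window shown is that of the start nearer to the gene model of the table (197 bases away against 4775 for Nat8, 54 against 2351 for Nat8f4). Capitals mark the longest run of at least 12 bases found unchanged in the window of another family gene.
Nat8: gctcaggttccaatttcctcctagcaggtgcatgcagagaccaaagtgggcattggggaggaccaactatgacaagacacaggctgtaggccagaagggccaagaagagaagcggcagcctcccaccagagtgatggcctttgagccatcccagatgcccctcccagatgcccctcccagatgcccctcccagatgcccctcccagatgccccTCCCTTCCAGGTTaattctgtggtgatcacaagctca
Nat8f5: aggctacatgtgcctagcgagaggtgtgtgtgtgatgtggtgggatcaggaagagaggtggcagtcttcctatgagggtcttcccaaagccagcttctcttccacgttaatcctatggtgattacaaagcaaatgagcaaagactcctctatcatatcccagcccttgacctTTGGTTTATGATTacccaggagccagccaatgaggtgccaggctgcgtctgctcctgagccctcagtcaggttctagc
Nat8f4: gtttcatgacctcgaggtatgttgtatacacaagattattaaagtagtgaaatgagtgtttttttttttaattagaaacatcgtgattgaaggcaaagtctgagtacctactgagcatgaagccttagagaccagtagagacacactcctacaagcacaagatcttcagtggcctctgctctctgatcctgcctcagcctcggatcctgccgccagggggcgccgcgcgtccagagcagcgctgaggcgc

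The 13 capital bases of Nat8 recur in Nat8f6 and the 13 of Nat8f5 in Nat8f2, while neither Nat8f4 window shared such a run. The window of the second Nat8 start (chr6:85836858-85837107) shares an unbroken run of 88 bases with that of Nat8f3, and is 98.7% identical to it over 156 aligned bases. CpG dinucleotides differed between the starts of 1 gene as well as between genes, with 1 and 7 in the Nat8 windows, 10 and 1 in the Nat8f4 windows (the shown one first) and 3 in that of Nat8f5. Nat8f1 has a CpG-rich window, with 21 CpG and 59.6% G and C, but all 250 bases of it lie in annotated exons (both strands counted). The window of Nat8f7 shares an unbroken run of 96 bases with that of Nat8f6, from 104 to 9 bases before the start, and RefSeq places this start 4644 bases inside the gene model of the table. Exact matches were sought on both strands for GTTAATNAT (the site of HNF1, a proximal tubule transcription factor), CAAAGTCCA (HNF4) and TATAAA. Neither of the first 2 motifs occurred in any of the 7 windows of the measured members, against 0.737% and 0.384% of all 32851 promoter windows. At such low shares a lack of exact matches in 7 windows is the likely outcome, and near matches were not sought, so no conclusion is drawn from it. TATAAA occurred in the Nat8f7 window and in that of a second Nat8f4 start, against 12.4% of all windows.

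Across the libraries, counts over the genes used summed to between 10953338 and 16701599. The first principal component separated cisplatin from control (73.6% of variance). The second (16.0%) set control 5 and cisplatin 4 and 6 apart from the other 5 libraries, a division within both groups that the labels do not name. Cisplatin 1 and 3 also held at most 3 counts of the Y-linked genes Kdm5d and Eif2s3y, against 274 or more in every other library, although all mice were described as male. Family values are therefore given by library, and folds also within each library set of the second component. These sets do not remove the Y-linked difference. The first compares controls 1, 2 and 3, which held such counts, with cisplatin 1 and 3, which nearly lacked them. In the second, control 5 and cisplatin 4 and 6 all held them. The part of this difference in the folds was not tested.

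After cisplatin, transcripts of 4 of the 5 measured members, Nat8, Nat8f1, Nat8f5 and Nat8f7, were lower than in controls, and all 4 cisplatin libraries lay below all 4 controls for each. Nat8f4 was not, its treated libraries running from just below the lowest control to well above the highest. Over all 9141 genes tested, 15.7% were called lower and 19.2% called higher, a call being an adjusted p under 0.05 and a log2 fold change of at least 1 in size (edgeR quasi-likelihood test, Benjamini-Hochberg), and in 22.5% the cisplatin libraries lay wholly below the controls. These shares stand here as background only, since the members were picked with this comparison known. Levels below are counts per 1000000 counts of the library (CPM), with library sizes scaled by edgeR's TMM factors.

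Nat8, which encodes the cysteine conjugate N-acetyltransferase of the kidney, measured 283, 243, 282 and 421 CPM in controls 1, 2, 3 and 5. It measured 3.37 and 2.58 CPM in cisplatin 1 and 3, and 38.4 and 33.1 CPM in cisplatin 4 and 6. The treated kidneys thus fell into a lower and a higher pair, both far below every control. The means were 307 ± 77.9 and 19.4 ± 19.1 CPM (SD, n = 4 each), and the fitted log2 fold change was -4.00 (SE 0.83). Within the set of controls 1, 2 and 3 and cisplatin 1 and 3 the control mean was 90.6-fold the cisplatin mean, and against control 5 alone cisplatin 4 and 6 differed by 11.8-fold. Without cisplatin 1 and 3 the log2 fold change was -3.09.

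Nat8f1, the neighbour most alike to Nat8 in sequence, measured 222, 208, 237 and 590 CPM in the same controls. Its cisplatin values were 5.55, 3.85, 28.0 and 30.8 CPM in libraries 1, 3, 4 and 6. Control 5 was high and cisplatin 1 and 3 were low, so the order of libraries resembled that of Nat8. The means were 314 ± 184 and 17.1 ± 14.3 CPM, with a log2 fold change of -4.21 (SE 0.73). Within the library sets the folds were 47.3 and 20.1. Nat8 exceeded Nat8f1 in read number in controls 1, 2 and 3 (ratios 1.27, 1.17 and 1.19) but not in control 5 (0.714), and in cisplatin 4 and 6 (1.37 and 1.07) but not in cisplatin 1 and 3 (0.607 and 0.671). The relation between the most abundant pair thus varied within both groups.

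Nat8f5, a family member of less defined substrate, measured 42.9, 21.2, 49.1 and 47.4 CPM in controls 1, 2, 3 and 5. It measured 0.364 and 0.0550 CPM in cisplatin 1 and 3, which are 8 counts and 1 count, and 3.44 and 5.87 CPM in cisplatin 4 and 6, which are 47 and 74 counts. The contrast within the treated kidneys was wider than for Nat8, the pair 4 and 6 averaging 22.2-fold the pair 1 and 3, against 12-fold for Nat8 and 6.26-fold for Nat8f1. Group means were 40.2 ± 12.9 and 2.43 ± 2.75 CPM, with a log2 fold change of -4.11 (SE 0.91). Without cisplatin 1 and 3 it was -3.10, and in the first library set alone -7.41.

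Nat8f7 was close to absent after treatment. Its control libraries held 148, 116, 158 and 97 counts, or 13.1, 9.25, 11.98 and 7.63 CPM. Cisplatin 1 and 4 held 1 count each and cisplatin 3 and 6 held 0, at 14568233 and 10953338 total counts. Unlike Nat8 and its close relatives, Nat8f7 was thus at the limit of detection in both pairs of treated kidneys. Taking 3 counts as the smallest measurable level, 0.238 CPM in the treated group, the control mean of 10.5 ± 2.50 CPM was at least 44.1-fold higher. Because most Nat8f7 windows of read length recur in Nat8f3 and Nat8f6, which were not analysed here, a change in how shared reads were assigned cannot be told apart from a change in Nat8f7 itself.

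Nat8f4, a further relative of less defined substrate, was the member that did not lie below its controls. Controls 1, 2, 3 and 5 measured 17.6, 18.7, 18.0 and 21.9 CPM. Cisplatin 1 and 3, at 19.7 and 16.7 CPM, lay within the control range and just below it, whereas cisplatin 4 and 6, at 53.6 and 46.5 CPM, lay above all of them. The means were 19.1 ± 1.92 and 34.1 ± 18.6 CPM, and the log2 fold change of 0.84 (SE 0.36) did not reach the size used for a call. It was -0.05 in the first library set alone and 1.40 without cisplatin 1 and 3, so its value depended on which treated kidneys were compared. The same pair of treated kidneys was the higher one for Nat8f4 (2.74-fold), Nat8, Nat8f1 and Nat8f5.

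**Figure D1:**
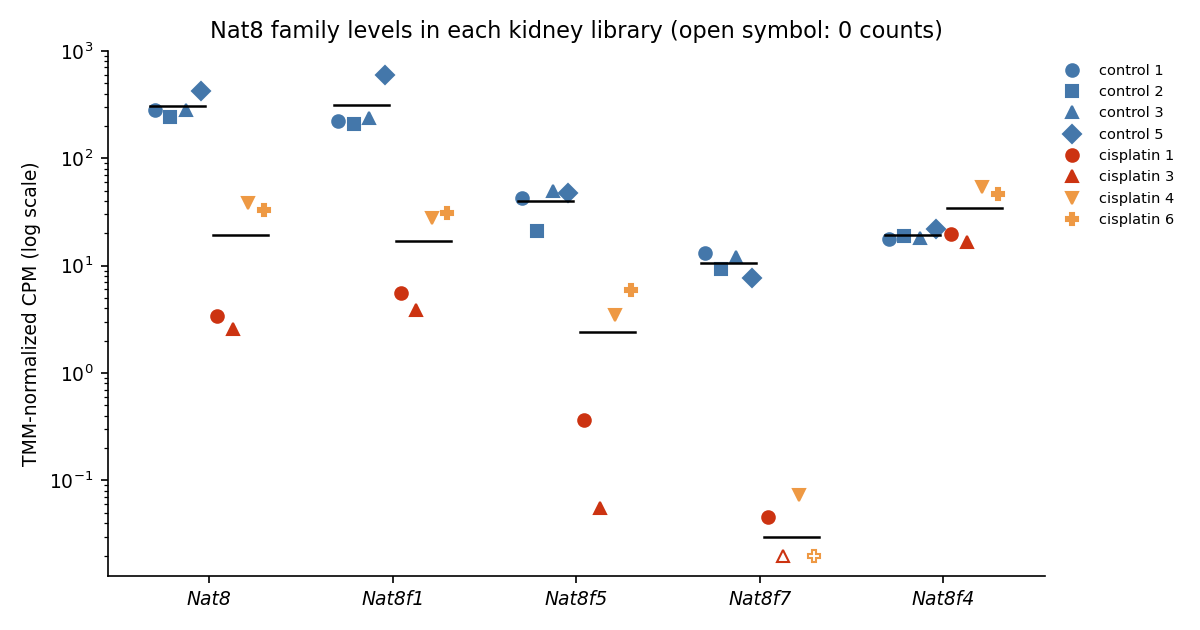
TMM-normalized CPM (log scale) of the 5 measured Nat8 genes in each library, with 1 symbol per kidney and bars at group means; open symbols mark 0 counts and are set at the foot of the axis. Nat8, Nat8f1, Nat8f5 and Nat8f7 lay lower in all 4 cisplatin libraries, with cisplatin 4 and 6 above cisplatin 1 and 3 for the first 3, and Nat8f4 lay at 16.7 to 53.6 CPM after treatment against 17.6 to 21.9 CPM in controls.

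Divided by the gene length of the table, so that genes can be set against each other, control levels were 274 ± 69.4 CPM per kilobase for Nat8 and 234 ± 137 for Nat8f1. These 2 overlapped. Nat8f5 followed at 40.8 ± 13.1, then Nat8f4 at 5.92 ± 0.595 and Nat8f7 at 5.76 ± 1.37, which also overlapped. In treated kidneys the levels were 17.2 ± 17.0 for Nat8, 12.7 ± 10.6 for Nat8f1, 10.6 ± 5.78 for Nat8f4 and 2.47 ± 2.79 CPM per kilobase for Nat8f5. Nat8f4, far below Nat8 and Nat8f1 in controls, thus lay within the span of their treated values. It was above both in cisplatin 1 and 3 (6.12 and 5.19 CPM per kilobase). In cisplatin 4 and 6 (16.6 and 14.4 CPM per kilobase) it was below both.

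The make-up of family reads shifted accordingly. Summed over the 5 members, the family took 691 ± 268 CPM in controls (500.2 to 1087 CPM) and 73.0 ± 54.3 CPM in treated kidneys (23.2 to 124 CPM). Nat8f4 supplied 3.04%, 3.75%, 3.02% and 2.01% of these reads in controls 1, 2, 3 and 5. It supplied 67.9% and 72.0% in cisplatin 1 and 3, and 43.4% and 40.0% in cisplatin 4 and 6. Nat8 supplied 38.7% to 48.9% in controls and 11.1% to 31.1% after treatment, so the leading transcript by read number differed between the groups. These shares rest on 422 to 1688 family reads in treated kidneys and 6270 to 13829 in controls, and depend on the 5 measured genes alone.

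**Figure D2:**
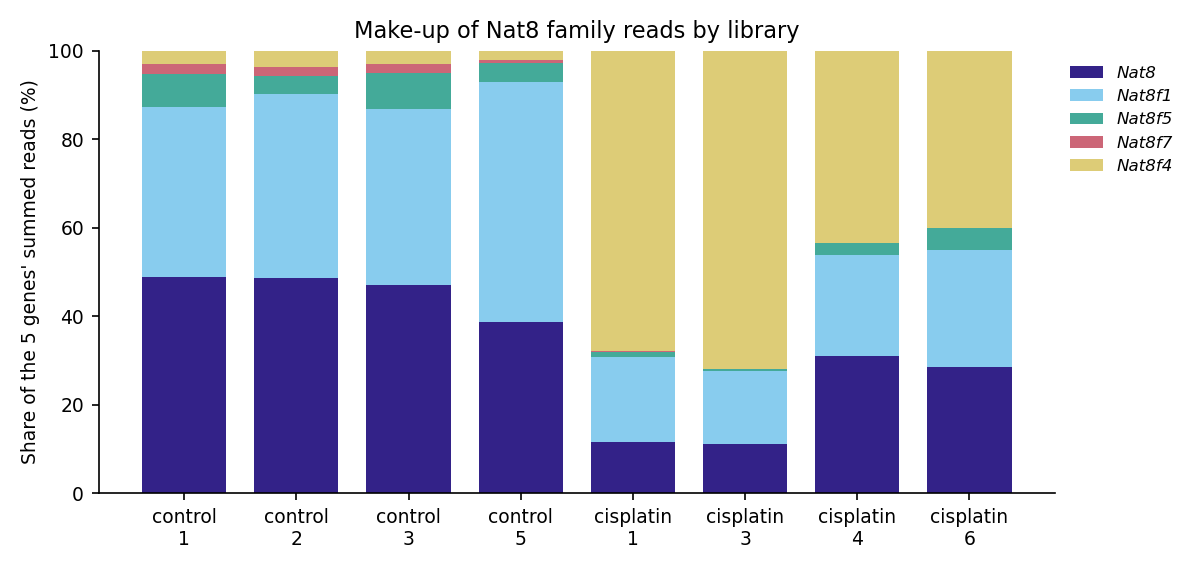
Share (%) of the reads summed over the 5 measured Nat8 genes that each gene supplied, 1 bar per library. Nat8 and Nat8f1 made up most of each control bar, and Nat8f4 made up 2.01% to 3.75% of the bar in controls and 40.0% to 72.0% in cisplatin libraries.

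Proximal tubule transcripts, the compartment in which Nat8 is known to act, were lower in the same kidneys. All 14 measured marker genes of a 16-gene list were called lower (edgeR, adjusted p under 0.05), beside 15.7% of all genes tested. The median log2 fold change of the markers was -4.03, beside 0.08 over all genes tested. Their range was from -6.40 for Slc7a13 to -1.82 for Aqp1. Their summed level ran from 40353 to 49258 CPM in controls and from 1596 to 4204 CPM in cisplatin libraries, and no marker was at 0 in a group. Nat8, Nat8f1 and Nat8f5 thus changed by amounts close to the marker median, and Nat8f4 by an amount outside the marker range. The summed marker level was 1596 to 1674 CPM in cisplatin 1 and 3 and 3418 to 4204 CPM in cisplatin 4 and 6. Of the 14 markers, 9 were higher in both of the latter libraries than in both of the former, beside 36.7% of all genes tested. Slc4a4 was instead at 177 and 351 CPM in cisplatin 1 and 3, against 74.5 and 70.9 CPM in cisplatin 4 and 6. Slc7a7 ran the same way as Slc4a4, at 17.1 and 28.3 against 11.6 and 15.1 CPM. Injured tubule markers ran the other way, 6 of 7 called higher beside 19.2% of all genes tested, with sums of 1350 to 1683 CPM in controls. The sums were 34525 to 37679 CPM in cisplatin 1 and 3, and 15945 to 18089 CPM in cisplatin 4 and 6. Spp1, at 8665 to 23827 CPM, made up most of each treated sum. Krt20 was instead lower in cisplatin 1 and 3 (938 and 1026 CPM) than in cisplatin 4 and 6 (1516 and 1433 CPM). Havcr1 and Sox9 overlapped between the pairs. The part of these marker changes in the Nat8 values was not tested.

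Markers of other kidney cells moved less uniformly. Of the measured markers, 2 of 3 for the thick limb and distal tubule were called lower. All 3 of these lay wholly below controls, with log2 fold changes of -1.85 for Umod, -3.36 for Slc12a3 and -1.78 for Slc12a1. Slc12a1 was not called (edgeR, adjusted p = 0.0602). For the collecting duct 2 of 3 were called higher. Over all genes tested 15.7% were called lower and 19.2% higher. None of the 2 podocyte markers and the 1 endothelial marker was called, although the endothelial marker, Kdr, lay wholly below controls (log2 fold change -0.94). Of 3 leukocyte markers 1 was called higher and 1 lower, and the 1 stromal marker was called higher. No list had a marker at 0 in every library.

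The steps of mercapturate metabolism around Nat8 were then taken in order, with other N-acyltransferases, which act on other substrates, as a last group. Of 57 genes listed, 31 had a value per library and 30 were tested. Of these, 14 were called lower, 7 higher and 9 were not called, beside 15.7% and 19.2% of all genes tested, with a median log2 fold change of -0.75. When libraries were scaled by total counts alone, which shifted the median of all genes by 0.57, the split was 10 lower and 8 higher. Without the other N-acyltransferases, 11 of 25 tested were lower and 6 higher (median -0.68), and 8 and 7 under total counts. Under total counts Abcc2 (-0.96), Gstk1 (-0.94), Gm4952 (-0.70) and Kyat3 (-0.50) were no longer called and Gsto2 (1.03) was. All p values of these genes are adjusted over the 9141 genes tested by edgeR.

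Glutathione S-transferases, the first step, were mixed, with 5 of 14 tested called higher and 2 lower (median log2 fold change 0.33). Over all genes tested 19.2% were called higher and 15.7% lower. Gsta1, an alpha class transferase, measured 0.177, 0.239, 0.683 and 0.315 CPM in controls 1, 2, 3 and 5, and 5.05, 3.85, 105.0 and 139 CPM in cisplatin 1, 3, 4 and 6. All treated kidneys were above the controls, libraries 4 and 6 far more so, and the log2 fold change was 7.42 (SE 1.39, adjusted p = 0.00181). Gstp3, a pi class transferase, rose by 5.04 on the log2 scale (SE 0.92, adjusted p = 0.00155). Control counts of Gsta1 (2, 3, 9 and 4) and Gstp3 (3, 3, 0 and 7) lay near the floor of 3 counts, so the sizes of these folds are uncertain. Gstm6, of the mu class, rose by 1.94 (SE 0.47, adjusted p = 0.00697). Mgst1, the microsomal enzyme, rose by 1.44 (adjusted p = 0.0115). It was short of the size used in the first library set alone (0.84) and under the replicate block (0.99), which both rest on cisplatin 1 and 3. Gsta4, which acts on lipid aldehydes, rose by 1.2 (adjusted p = 0.000331). Gstz1, which works in tyrosine breakdown, fell by 2.0 (adjusted p = 0.00058) and Gstk1, the mitochondrial and peroxisomal form, fell by 1.51 (adjusted p = 0.00123). Gsta2, the nearest relative of Gsta1, was at 195 ± 11.8 and 168 ± 50.5 CPM, and was not called. How reads were divided between near-identical transferases, such as Gsta1 and Gsta2 or the Gstp genes, was not examined, so their separate values are uncertain.

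Peptidases that trim glutathione conjugates were 3 lower and 1 higher of 4 tested, beside 15.7% and 19.2% of all genes tested. Ggt1, which removes glutamate from the conjugate, was at 1836, 1659, 1748 and 2761 CPM in controls and at 101, 122, 231 and 328 CPM in cisplatin 1, 3, 4 and 6. Ggt1 fell by 3.36 on the log2 scale (SE 0.40, adjusted p = 0.000137). Lap3, an aminopeptidase, fell by 2.28 (adjusted p = 0.000115) and Ggt6, a relative of Ggt1, fell by 1.68 (adjusted p = 0.00198). Ggt7, a further relative, rose by 1.47 (adjusted p = 0.0177), a call lost without control 2 (adjusted p = 0.0545).

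Kyat1 and Kyat3 encode lyases that compete with Nat8 for cysteine conjugates. Kyat3 was called lower with a log2 fold change of -1.05 (SE 0.31, adjusted p = 0.0189), although its groups overlapped, and the call was lost without control 2, control 5, cisplatin 1 or cisplatin 3, with log2 fold changes of -0.97 to -0.87. Kyat1 had a log2 fold change of -0.83 (adjusted p = 0.0307), short of the size used for a call, which it passed without cisplatin 4 (-1.15), in the first library set alone (-1.32), with a library set term (-1.02) and under the replicate block (-1.39). The first library set and the replicate block rest on the same treated kidneys, cisplatin 1 and 3. The calls of both lyases thus depended on the libraries and the fit.

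Deacylases can take the acetyl group off again. Acy3, aminoacylase of mercapturates, was at 4312, 3563, 4405 and 4334 CPM in controls and at 63.3, 62.1, 371 and 389 CPM in cisplatin 1, 3, 4 and 6. It fell by 4.23 on the log2 scale (SE 0.66, adjusted p = 0.000622), with the same low and high pairs of treated kidneys as Nat8. Aspa, which deacetylates N-acetylaspartate, fell by 4.76 (SE 0.27, adjusted p = 2.51e-06), from 219 ± 8.02 to 8.13 ± 3.20 CPM. Both measured deacylases thus fell.

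Transporters of organic anions and conjugates were all lower, 3 of 3 tested, beside 15.7% of all genes tested. Slc22a6 and Slc22a8, which take up organic anions from the blood side of the tubule, fell by 4.64 (SE 0.72, adjusted p = 0.000614) and by 4.40 (SE 0.55, adjusted p = 0.00017). Abcc2, an export pump of the brush border, fell by 1.49 (SE 0.38, adjusted p = 0.00879), and its log2 fold change was -0.93 without cisplatin 1 and 3.

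Among the other N-acyltransferases, 3 of 5 tested were lower and 1 higher, beside 15.7% and 19.2% of all genes tested. Glyat, which joins glycine to acyl groups in mitochondria, was at 902, 843, 846 and 883 CPM in controls and 72.7, 120.3, 115 and 127 CPM in cisplatin libraries 1, 3, 4 and 6. In contrast to Nat8, its treated libraries did not split into the 2 pairs, and it fell by 3.0 on the log2 scale (SE 0.21, adjusted p = 5.91e-06). Keg1, a kidney relative of Glyat, fell by 4.50 (SE 0.26, adjusted p = 2.72e-06). Gm4952, also Glyat-like, was called lower with a log2 fold change of -1.24 (adjusted p = 0.0336), a call lost without control 1, control 3, cisplatin 1 or cisplatin 3 (adjusted p = 0.0726 to 0.0904). Sat1, which acetylates polyamines, rose by 1.06 (SE 0.20, adjusted p = 0.00198), short of the size used without control 3 (0.99) or cisplatin 4 (0.95), in the first library set alone (0.93) and with a library set term (0.96). Baat, the bile acid conjugating enzyme, was not called at 0.14.

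**Figure D3:**
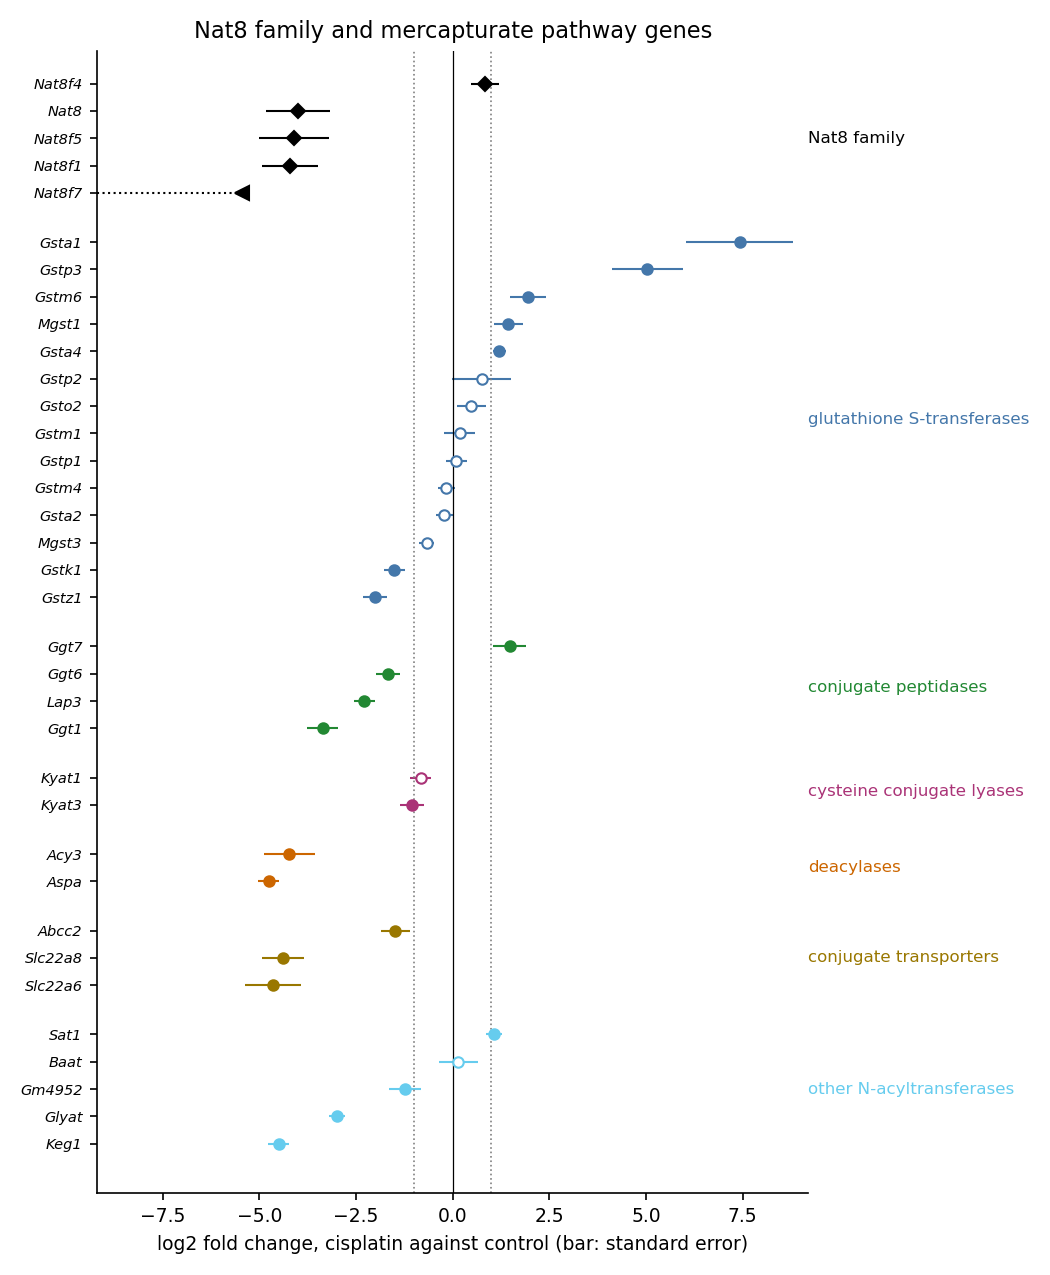
Log2 fold change, cisplatin against control, of the measured Nat8 genes and of tested mercapturate pathway genes by step and other N-acyltransferases, with bars of 1 standard error, filled symbols for called pathway genes and dotted lines at a log2 change of 1 in either direction; Nat8f7 is drawn as a bound at -5.46 with an arrow. Deacylases and organic anion uptake carriers lie with Nat8, Nat8f1 and Nat8f5 near or below -4, while 5 of 14 glutathione S-transferases lie above 1.

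The 2 pairs of treated kidneys differed beyond the family. Both cisplatin 4 and 6 exceeded both cisplatin 1 and 3 for 26 of the 30 pathway and other N-acyltransferase genes tested, whereas this held for 3354 of all 9141 genes (36.7%). Nat8, Nat8f1, Nat8f4 and Nat8f5 showed the same order. Some marker sums ran the opposite way. In cisplatin 1 and 3 the thick limb and distal markers summed to 2384 to 4105 CPM, against 436 to 1070 CPM in cisplatin 4 and 6. In the same order, the stromal marker was at 502 to 510 against 87.6 to 233 CPM. The summed leukocyte markers were at 47.3 to 85.0 against 23.6 to 38.5 CPM. Among these, Cd79a was instead lower in cisplatin 1 and 3 (2.91 and 2.42 CPM) than in cisplatin 4 and 6 (6.37 and 10.3 CPM). The comparison is a description of 2 against 2 libraries, and the lack of Y-linked counts in cisplatin 1 and 3 goes with it; the part of these in the Nat8 values was not tested.

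**Figure D4:**
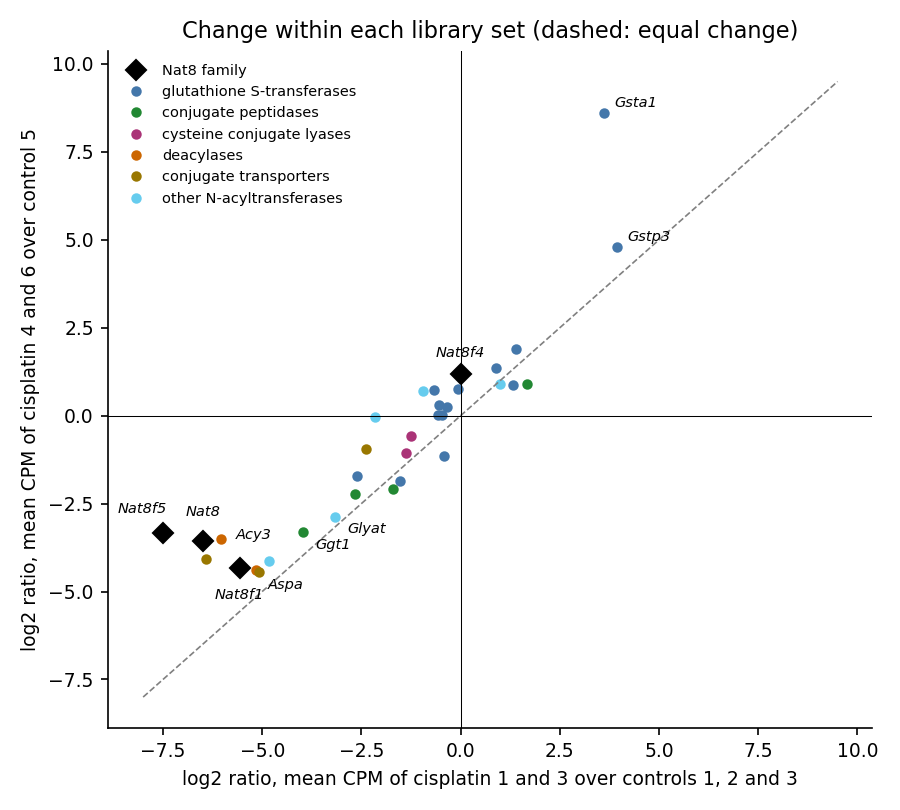
Log2 ratio of mean CPM within each library set: cisplatin 1 and 3 over controls 1, 2 and 3 on the horizontal axis, cisplatin 4 and 6 over control 5 alone on the vertical axis; each point is a gene and the dashed line marks equal change. Nat8f7 is left out because no treated library held more than 1 count, and Nat8, Nat8f5 and Gsta1 lie above the line, by 90.6-fold against 11.8-fold lower for Nat8.

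The genes whose pattern over the 8 libraries was nearest to that of Nat8, which also had the highest level per kilobase, were named by the smallest root mean square difference of log2(CPM + 1), each gene centred on its control mean. They were Ces1f, a carboxylesterase (0.197), Slc22a7, an organic anion carrier (0.296), Acy3 (0.303), Eci3, an enoyl-CoA isomerase (0.322), and Cyp4b1, a cytochrome P450 (0.349). Ces1f, for example, was at 22.1 and 20.3 CPM in cisplatin 1 and 3 and at 195 and 207 CPM in cisplatin 4 and 6, against 1231 to 1690 CPM in controls. By the same measure Nat8f1 lay at 0.402 from Nat8, Nat8f5 at 0.706, Nat8f7 at 1.46 and Nat8f4 at 3.8. The added 1 limits how far the low Nat8f5 and Nat8f7 can fall on this scale, so part of their distance is set by the measure.

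Position was examined because the cluster is compact. Within 250000 bases of the outermost cluster genes, 12 other genes had a value per library (a further 11 were not used) and 7 of these held at most 10 counts in all libraries together. Of the 4 tested, 0 were called by edgeR, 2 having an unadjusted p under 0.05, and DESeq2 called 1. Ptges3-ps, a processed pseudogene that lies between Nat8 and Nat8f2, was at 39.4 ± 6.36 and 38.4 ± 5.42 CPM (log2 fold change -0.04, SE 0.18). Dusp11, an RNA phosphatase gene, had a log2 fold change of -0.37 (SE 0.16, adjusted p = 0.0754), and Gm19265, an antisense gene, of -0.28 (SE 0.40). Add2, which encodes beta-adducin, had 1.46 (SE 0.62, adjusted p = 0.0752) and was the gene that DESeq2 called higher. The 4 tested genes thus did not share the fold changes of Nat8. Gm18290, a processed pseudogene on the minus strand at chr6:85920575-85921418 beside Nat8f1, fell short of the expression filter, with 13, 6, 28 and 18 counts in controls and 1, 3, 0 and 2 counts in cisplatin 1, 3, 4 and 6. Against the floor of 3 counts its controls were at least 5.43-fold higher, and with no filter applied it was called lower by edgeR (adjusted p = 0.000571). Under a filter it can enter a fit only through its higher control counts, so such calls add no support. The parent gene of this pseudogene is not given in the sources used here.

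**Figure D5:**
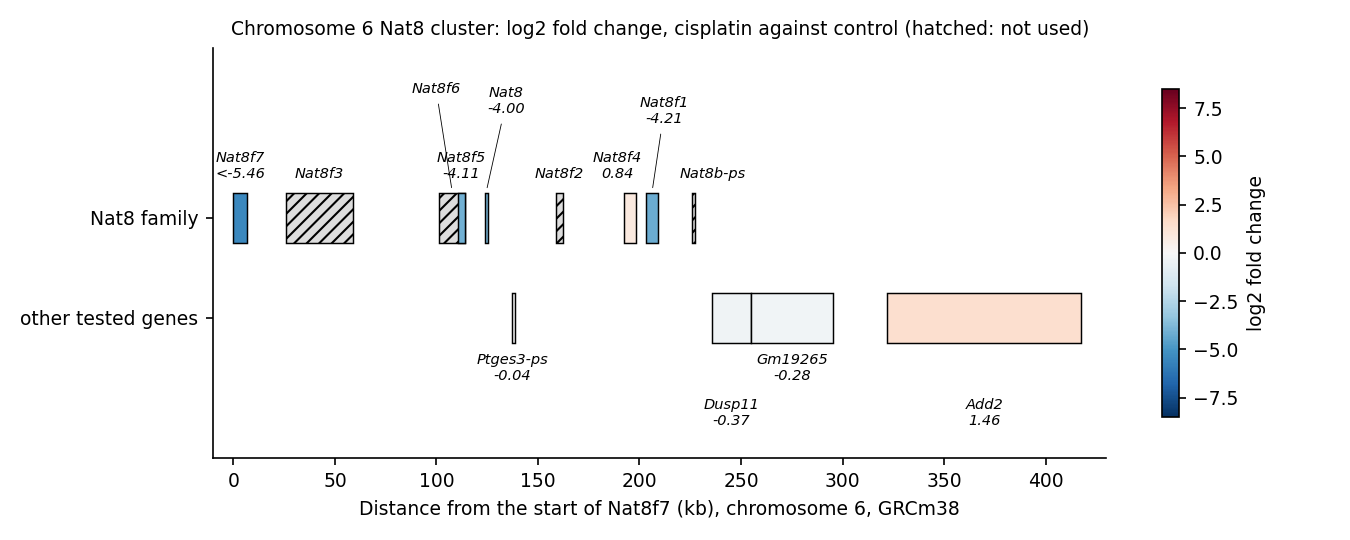
Map of the chromosome 6 Nat8 cluster (GRCm38), with distance in kilobases from the start of Nat8f7, family genes in the upper row and other tested genes in the lower row, coloured and labelled by log2 fold change; hatched genes were not used. Nat8f4 (0.84) lies beside Nat8f1 (-4.21), and the 4 tested neighbours have values from -0.37 to 1.46.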

How the data were processed

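Whole-kidney RNA was sequenced for 4 control and 4 cisplatin mice as paired 150-base reads. Per the labels and the study's methods, reads were cleaned with fastp and aligned to GRCm38 with HISAT2, and the authors deposited whole-number read counts per gene without normalization. The counting tool, annotation release and strand setting are not given in the sources used here, and the library kit differs between the labels and the methods. In 17835 genes (33.2% of the table) 10 values stand under 8 named libraries. These genes and the 2 unnamed columns were used in no step.

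Differential expression was computed with edgeR 4.0.16 under R 4.3.3 (default expression filter, TMM scaling, quasi-likelihood test, Benjamini-Hochberg over 9141 genes). A gene was called at an adjusted p under 0.05 and a log2 fold change of at least 1 in size. The standard error was the log2 fold change divided by the square root of F. A level of 3 counts was taken as measurable. Reads carried no molecular identifiers as far as stated, so this covers counting error only. Sequences were handled in Python 3.11.15 with Biopython 1.88. The procedure was tested on simulated data.

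Named were all measured Nat8 genes, genes of the pathway and marker lists, neighbours within 250000 bases, and the 5 genes nearest to Nat8 in pattern. Members and lists were chosen with earlier results of these data known. The alternatives were DESeq2 1.42.0, other scalings, filters and prior counts, the replicate number as a block, the library sets, and leaving out libraries. The kidneys came from different mice.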

Additional observations from a re-analysis of the deposited data

Results flagged for a closer look

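In 5 of 70 groups of 4 libraries examined (family and pathway genes, by group), 1 library stood apart from the other 3 by Dixon's criterion, which chance alone gives in about 1 in 20 groups. Control 5 was the high library in 4 of them. Nat8f1 was at 589.6 CPM in control 5 against 208 to 237 CPM in controls 1, 2 and 3, so its control mean and SD rest on this library, and without it the log2 fold change was -3.73 in place of -4.21. Gstk1 was at 103.0 CPM in control 5 against 55.0 to 61.2 CPM. Ggt1 was at 2761 CPM there against 1659 to 1836 CPM, and Lap3 at 1095 CPM against 799 to 822 CPM. Acy3 was lowest in control 2, at 3563 CPM against 4312 to 4405 CPM in the other controls. The cause was not tested.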

How the results depend on the processing

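Nat8, Nat8f1, Nat8f5 and Nat8f7 kept a log2 fold change of -1 or lower in every alternative that could test them. Where every library had to hold 10 counts or more, 2 members remained at that level because Nat8f5 and Nat8f7 were no longer tested, and 4 pathway genes were called higher in place of 7. Over all alternatives the log2 fold change ran from -6.56 to -3.09 for Nat8, -5.61 to -3.40 for Nat8f1, -7.64 to -3.10 for Nat8f5, and -0.05 to 1.40 for Nat8f4; the estimate of Nat8f7, from -8.59 to -5.99, depends on the prior count. Leaving out 1 library at a time kept 4 members at -1 or lower, 12 to 15 of the 30 pathway and other N-acyltransferase genes lower and 6 to 7 higher, and 0 to 1 neighbours higher and 0 to 1 lower. Add2 was called higher (1 neighbour in place of 0) with DESeq2, with total library size, with no filter, without cisplatin 1 and 3, and without cisplatin 3. Gm18290 was called lower (1 in place of 0) with no filter, in the first library set alone, without cisplatin 1 and 3, and without control 2 or any 1 cisplatin library, which are the alternatives that tested it. The replicate numbers 1 and 3 recur in both groups but mark no described pairing (correlation of deviations 0.25 and 0.28). With the number as a block, the group difference rests on controls 1 and 3 and cisplatin 1 and 3 alone, because the other numbers occur in 1 group. In that fit 15 pathway genes were lower and 6 higher, and Nat8 was at -6.56, Nat8f4 at 0.03. It has the same treated kidneys as the first library set, so these alternatives are not separate evidence. Scaling by total counts gave -3.49 for Nat8 and 1.37 for Nat8f4. The other causes were not tested. Nat8f7 had at most 1 count in each treated library, under the floor of 3 counts, so its fold is a bound.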
